A study of Homo sapiens with 36 samples.

Results

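The proteasome genes were read from ribosome footprints and RNA of 2 human cell models of transformation. Members were taken by name, as symbols that start with PSMA to PSMG and a digit, without the immunoproteasome genes PSMB8, PSMB9 and PSMB10. Each symbol was represented by its most counted transcript, by mean count over the libraries. The rule took 46 of 19137 symbols. PSMC3IP, a protein of meiotic recombination, matched by its name alone and was kept out of all counts, which leaves 45. They are 8 alpha and 8 beta subunit genes of the core, 17 genes of the regulatory cap, 3 chaperones of cap assembly, 4 chaperones of core assembly, 4 activators and the inhibitor PSMF1. PSMA8, known from testis, and PSMB11, known from thymus, had no count in any of the 36 libraries. The other 43 passed the filter on low counts in each cycloheximide comparison.

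MCF10A-ER-Src is an immortal breast epithelial line in which 4-hydroxytamoxifen activates a fused Src kinase. It was sampled at 0 h, after ethanol for 1, 4 or 24 h, and after 1 µM tamoxifen for 1, 4 or 24 h. The fibroblast line BJ was sampled as EH, EL and ELR, names that the labels do not explain, and as background such BJ series add telomerase, then the SV40 early region, then oncogenic HRAS. Footprints were prepared with cycloheximide (100 µg/ml, 90 s), which stops elongating ribosomes, or with harringtonine (2 µg/ml, 5 min), which blocks the first elongation steps and lets ribosomes further on finish. Each ER-Src RNA group, each ER-Src harringtonine group (0 h and the 3 tamoxifen times) and each ER-Src cycloheximide control had 1 library, and each tamoxifen time had 2 cycloheximide libraries. Each BJ line had 1 RNA, 2 cycloheximide and 2 harringtonine libraries. In tests the 0 h and ethanol libraries of one assay formed 1 uninduced group of 4. Every ethanol footprint library is numbered replicate 2 and the 0 h library replicate 1, so vehicle and replicate number cannot be told apart there. No label says that replicates came from separate cultures, so a p-value may measure technical spread, and each line is its own cell population with no repeat of its making.

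The proteasome degrades proteins tagged with ubiquitin. Its core is a barrel of stacked rings: outer alpha rings gate the entry, and inner beta rings hold the active sites of PSMB5 (chymotrypsin-like), PSMB6 (caspase-like) and PSMB7 (trypsin-like). The cap sits on the barrel, where PSMC ATPases unfold the substrate, base subunits such as PSMD1, PSMD2 and PSMD4 bind ubiquitin or its carriers, and the lid, with the deubiquitinase PSMD14, removes the ubiquitin chain. PSME1 and PSME2 form an interferon-inducible ring that can replace the cap, PSME3 forms a related nuclear ring, and PSME4 is a very large single-chain activator. Interferon also induces PSMB8, PSMB9 and PSMB10, which replace the constitutive active subunits, and the factor NFE2L1 raises subunit genes together when proteasome activity is short.

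Promoters were compared first, because PSME1 and PSME2 moved apart from the subunit genes in the BJ lines. RefSeq promoters on GRCh38.p14, 250 bases before to 50 bases after the gene start, were at hand for 39 of the 45 genes and 13994 genes in all. They were searched on both strands for 17 motifs. The core of the interferon response element, written as GAAA, any 2 bases and GAAA again, lay in 5 members (12.8% of 39, against 3.18% of all promoters), and those 5 are shown because PSME1 and PSME2 are among them. Capitals mark the match in each sequence, which is given 5′ to 3′ on the gene's strand. In PSME1 the match reads on the opposite strand and begins at base 6 after the start. In PSME2, PSMG4, PSMB4 and PSMA4 it begins at bases -28, -33, -68 and -240. The windows are chr14:24135944-24136243 (plus strand, PSME1), chr14:24146561-24146860 (minus, PSME2), chr15:78540155-78540454 (plus, PSMA4), chr1:151399323-151399622 (plus, PSMB4) and chr6:3258697-3258996 (plus, PSMG4).
PSME1: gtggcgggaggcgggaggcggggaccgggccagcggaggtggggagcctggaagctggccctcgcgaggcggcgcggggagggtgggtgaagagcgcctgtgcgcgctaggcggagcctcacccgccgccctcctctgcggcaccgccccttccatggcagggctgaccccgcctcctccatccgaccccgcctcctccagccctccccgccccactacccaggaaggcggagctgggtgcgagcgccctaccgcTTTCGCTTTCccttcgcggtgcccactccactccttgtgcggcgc
PSME2: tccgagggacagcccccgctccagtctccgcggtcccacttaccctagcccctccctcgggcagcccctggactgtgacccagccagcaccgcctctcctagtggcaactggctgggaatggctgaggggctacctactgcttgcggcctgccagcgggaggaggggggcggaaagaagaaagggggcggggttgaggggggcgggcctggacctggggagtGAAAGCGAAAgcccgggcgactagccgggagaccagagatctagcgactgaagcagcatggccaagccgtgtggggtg
PSMA4: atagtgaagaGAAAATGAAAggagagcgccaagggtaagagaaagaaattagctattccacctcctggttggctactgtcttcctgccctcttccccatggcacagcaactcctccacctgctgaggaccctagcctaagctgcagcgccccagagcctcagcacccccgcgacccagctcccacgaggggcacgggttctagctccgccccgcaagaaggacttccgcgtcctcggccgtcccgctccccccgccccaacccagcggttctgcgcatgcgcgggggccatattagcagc
PSMB4: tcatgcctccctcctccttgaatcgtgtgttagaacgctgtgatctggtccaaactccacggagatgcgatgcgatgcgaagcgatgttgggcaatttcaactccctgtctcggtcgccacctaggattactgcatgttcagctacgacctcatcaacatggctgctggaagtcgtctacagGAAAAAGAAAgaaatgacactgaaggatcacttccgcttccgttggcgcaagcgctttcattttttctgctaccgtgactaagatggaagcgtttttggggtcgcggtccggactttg
PSMG4: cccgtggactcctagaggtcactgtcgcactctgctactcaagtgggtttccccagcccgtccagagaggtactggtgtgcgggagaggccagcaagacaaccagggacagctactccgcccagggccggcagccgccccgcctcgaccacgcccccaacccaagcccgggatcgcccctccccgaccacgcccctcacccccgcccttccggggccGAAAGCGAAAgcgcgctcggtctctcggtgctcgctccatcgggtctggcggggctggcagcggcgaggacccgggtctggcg
The letters GAAAGCGAAA of PSME2 and PSMG4, and their reverse complement in PSME1, are the same. A match is only a description of letters. Whether a factor bound there was not measured.

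The other motifs were counted in the same way. TGACNNNGC, the core of the antioxidant response element bound by the NFE2 family, lay in 12 members (30.8%, against 14.3% of all), PSME1 and PSME2 included, and CCAAT in 18 (46.2%, against 36.4%). TGACNNNGC preceded by GA and followed by A, which was counted in the shorter form too, lay in 1 member, PSMD3 (2.56%, against 0.143%). TGAGNNNGC lay in 33.3% of members and 19.8% of all promoters, CCGGAAG in 33.3% and 14.3%, GGAAGTG in 23.1% and 13.2%, and TTCNNNGAA in 12.8% and 7.05%. ATGGCGG lay in 12.8% and 7.78%, AAGATGGC, which can overlap it, in 10.3% and 4.05%, and GCCATNTTG, which can overlap AAGATGGC on the other strand, in 7.69% and 4.04%. GGCGGG lay in 69.2% and 59.6%, CTTTC, which can lie inside the interferon response core on the other strand, in 61.5% and 51.7%, CAGGTG in 12.8% and 19.5%, and CACGTG in 7.69% and 8.92%. TGACTCAGC and TTTCGCG lay in no member and in 0.486% and 1.8% of all promoters.

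Counts per library, over 1 transcript per symbol, ranged from 1178012 to 3628073 under cycloheximide, 2071883 to 3008760 in RNA and 129175 to 374359 under harringtonine, so harringtonine values carry the most counting error. The proteasome genes took 0.9603% to 1.4324% of the cycloheximide counts, 0.715% to 1.0468% of the RNA counts and 0.449% to 0.8216% of the harringtonine counts. Summed over 10 epithelial markers, ER-Src cycloheximide libraries held 10689 to 21398 CPM (counts per library on a common scale) and BJ libraries 849 to 1330 CPM. Over 10 fibroblast markers, ER-Src held 15.1 to 43.5 CPM, EH 30201 and 30612, EL 4512 and 4632, and ELR 1136 and 1155. The fibroblast markers DCN and PDGFRA were at 0 in both ELR cycloheximide libraries, while COL6A3 (1943 and 1366 counts), COL1A1 (615 and 461) and FBN1 (321 and 241) were not. The 7 leukocyte markers summed to at most 149 CPM and the 5 endothelial markers to at most 8.28 CPM under cycloheximide. In such bulk samples fewer cells of a type and less RNA per cell cannot be told apart. The fibroblast sum was lower, in the order EH, EL, ELR, where most proteasome genes were higher than in EH, and its part in the results was not tested.

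Most proteasome genes had more footprints in EL than in EH. Of 43 members tested, 32 rose and 1, PSMD9, fell (edgeR quasi-likelihood test, adjusted p under 0.05), where 19.1% of all genes tested rose and 22.4% fell. The median log2 change of the members was 0.41, against -0.01 for all genes. Summed over the members, footprints went from 10406 and 10608 CPM in EH to 13507 and 13538 in EL. All 14 core subunits rose, as did all 6 ATPases, but only 6 of the other 11 cap subunits. The BJ replicates differ by little more than sampling noise (biological coefficient of variation 1.80%), and with the spread of all 16 cycloheximide libraries in its place 20 members rose and 1 fell. With that spread 2608 of 10936 genes were called, in either direction. The wider spread ended the calls of the core genes PSMA1, PSMA5, PSMB4 and PSMB5 and of the ATPases PSMC2, PSMC3 and PSMC5.

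From EL to ELR the genes split. Of 43 members, 14 rose and 6 fell, where 17.4% of all genes rose and 18.7% fell. The median log2 change was 0.06 against -0.01. The members that fell most were PSME2 and PSME1, the 2 that had risen most clearly among the activators from EH to EL. With the spread of all 16 libraries 3 rose (PSMC5, PSMD12 and PSMD14) and 3 fell (PSME1, PSME2 and PSMG1), names taken after their values were seen. That spread gave 1781 called of 10936 genes, in either direction. Against EH, ELR had 30 members that rose and 0 that fell, where 25.5% and 27.8% of all genes did. With the spread of all 16 libraries 22 rose and 0 fell, where 4194 of 10936 genes were called in either direction. DESeq2 also called 0 lower for ELR against EH. In the main fit 32 members had an unadjusted p under 0.05, in either direction. The comparisons of EL and of ELR with EH share the EH libraries. Both libraries of EL lay above both of EH for 32 of 45 genes and below for 3. Both of ELR lay above both of EH for 33 and below for 3. The 45 include PSMA8 and PSMB11, which had no counts. How many of all genes separated in this way was not counted, so these numbers have no background share.

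**Figure D1:**
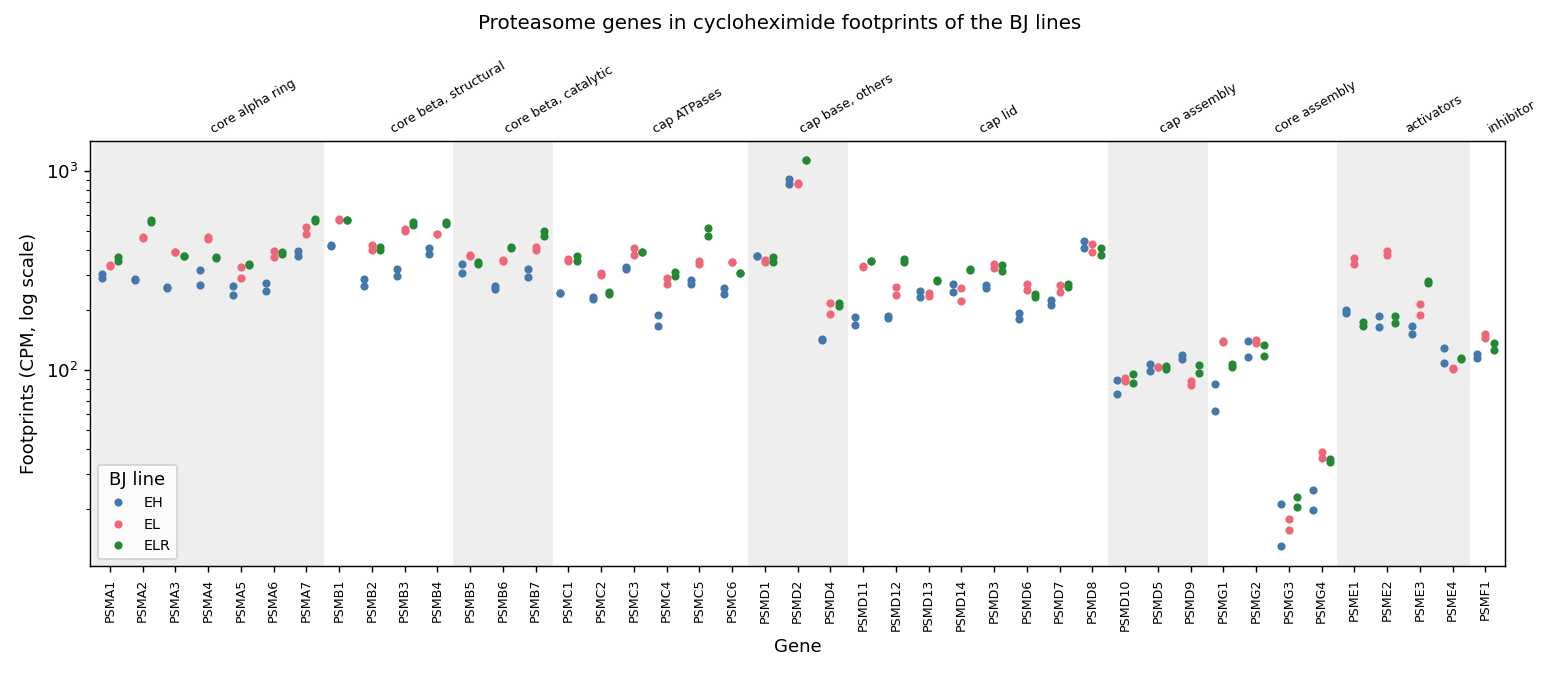
Cycloheximide footprints of 43 proteasome genes (CPM, log axis) in the BJ lines, 1 point per library and 2 libraries per line, with genes grouped by role. EH points lie lowest for most core genes, PSME1 and PSME2 stand highest in EL, and PSMD2 is the gene with the most footprints.

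The alpha subunits rose in EL in 7 of 7 cases, with log2 changes from 0.20 to 0.73. PSMA2 footprints were 285 and 284 CPM in EH, 467 and 459 in EL and 553 and 565 in ELR. It had the largest alpha change, 0.73 ± 0.06 (SE, adjusted p = 3.26e-16) from EH to EL and a further 0.30 ± 0.05 (SE, adjusted p = 2.06e-07) to ELR, and the libraries of the 3 lines did not overlap. PSMA4 was 317 and 269 CPM in EH, 454 and 465 in EL and 366 and 371 in ELR. It peaked in EL, with 0.67 ± 0.07 (SE, adjusted p = 4.13e-14) in EL against EH and -0.29 ± 0.05 (SE, adjusted p = 5.57e-06) in ELR against EL. With the spread of all 16 libraries the steps of PSMA2 and PSMA4 from EL to ELR were no longer called, nor was the difference of PSMA4 between ELR and EH. PSMA1 changed least among the alpha genes, 0.20 ± 0.07 (SE, adjusted p = 0.0136), and was not called from EH to EL by DESeq2 or with the wider spread.

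The beta genes also rose in EL in 7 of 7 cases. PSMB5, the chymotrypsin-like subunit, was 339 and 307 CPM in EH, 374 and 378 in EL and 339.7 and 348 in ELR. EL stood above the other lines, at 0.24 ± 0.07 (SE, adjusted p = 0.00176) against EH, while ELR against EH was 0.14 ± 0.07 (SE, adjusted p = 0.0762) and not called. PSMB5 lost its call in EL with the wider spread and without EH replicate 2 (log2 change 0.19, adjusted p = 0.0588). PSMB6, the caspase-like subunit, was 256 and 263 CPM in EH, 353 and 355 in EL and 413 and 409 in ELR, and its lines did not overlap. It changed by 0.48 ± 0.07 (SE, adjusted p = 2.09e-08) from EH to EL and by 0.24 ± 0.05 (SE, adjusted p = 0.00012) from EL to ELR. PSMB7, the trypsin-like subunit, was 295 and 322 CPM in EH, 399 and 413 in EL and 474 and 499 in ELR, again in that order without overlap. Its changes were 0.43 ± 0.07 (SE, adjusted p = 8.52e-08) and 0.29 ± 0.05 (SE, adjusted p = 3.42e-06). The steps of PSMB6 and PSMB7 from EL to ELR were lost with the wider spread. ELR and EH differed by 0.72 ± 0.07 for PSMB6 and 0.71 ± 0.06 for PSMB7 on the log2 scale, both called. Among the structural beta genes PSMB3 had the largest change between ELR and EH, 0.86 ± 0.06 (SE, adjusted p = 1.89e-20), with 321 and 298 CPM in EH, 508 and 497 in EL and 535 and 552 in ELR.

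In the cap, PSMD11, a lid subunit that braces the lid against the base, was 185 and 169 CPM in EH, 328 and 333 in EL and 353 and 352 in ELR. It rose by 0.92 ± 0.08 (SE, adjusted p = 6.23e-17) in EL and by 1.04 ± 0.08 (SE, adjusted p = 1.14e-19) in ELR against EH, the largest change of any member in the latter comparison, and both later lines stood clear of EH. PSMD12, its neighbour in the lid, was 183 and 186 CPM in EH, 238 and 259.9 in EL and 362 and 349 in ELR. It went up at both steps, by 0.45 ± 0.08 (SE, adjusted p = 4.03e-06) and then 0.55 ± 0.06 (SE, adjusted p = 5.24e-12), of which the first was lost with the wider spread. PSMC5, an ATPase, was 284 and 271 CPM in EH, 339 and 352 in EL and 518 and 472 in ELR. It rose by 0.56 ± 0.05 (SE, adjusted p = 1.48e-14) from EL to ELR. PSMD2, the base scaffold with the most footprints of all members, was 865 and 912 CPM in EH, 866 and 857 in EL and 1129 and 1131 in ELR. EH and EL overlapped for PSMD2, at -0.01 ± 0.04 (SE, adjusted p = 0.835), while ELR stood 0.42 ± 0.04 (SE, adjusted p = 5.09e-16) above EL, a call lost with the wider spread. PSMD14, the deubiquitinase, was 247 and 269.5 CPM in EH, 258 and 223 in EL and 322 and 316 in ELR. It was not called in EL, -0.06 ± 0.08 (SE, adjusted p = 0.552), and rose in ELR by 0.43 ± 0.06 (SE, adjusted p = 5.45e-08) against EL. The ATPases PSMC2 and PSMC6 fell from EL to ELR, with log2 changes of -0.29 ± 0.06 and -0.16 ± 0.06 (SE). Both of these calls were lost with the wider spread, and that of PSMC6 also by DESeq2 and without any 1 of the 4 EL and ELR libraries.

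The assembly chaperones did not follow one pattern. PSMG1, which helps build the alpha ring, was 84.7 and 62.6 CPM in EH, 139 and 140.2 in EL and 107 and 104 in ELR, highest in EL, at 0.93 ± 0.12 (SE, adjusted p = 7.37e-10) against EH. From EL to ELR it fell, -0.37 ± 0.09 (SE, adjusted p = 0.000693), a call DESeq2 did not make. PSMG4, a partner in the same step, was 19.8 and 24.8 CPM in EH, 36.3 and 38.8 in EL and 35.9 and 34.7 in ELR. Its change in EL was 0.79 ± 0.22 (SE, adjusted p = 0.00226), but without EH replicate 1 it was 0.61 and not called (adjusted p = 0.0961). PSMD9, a chaperone of the cap base, was 119 and 114 CPM in EH, 84.1 and 87.7 in EL and 106 and 97.1 in ELR. EL was the lowest line, -0.42 ± 0.12 (SE, adjusted p = 0.00213), and PSMD9 was the only member that fell from EH to EL. The members not called in EL against EH were PSMD1, PSMD2, PSMD5, PSMD8, PSMD10, PSMD13, PSMD14, PSMG2, PSMG3 and PSME4.

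The activators showed the sharpest difference between lines. PSME2 (chr14:24612571-24616779, minus strand, GRCh37) was 186 and 165 CPM in EH, 397 and 379.6 in EL and 171 and 188 in ELR. EL stood above both other lines, 1.17 ± 0.08 (SE, adjusted p = 8.55e-22) against EH, and ELR fell back, -1.10 ± 0.06 (SE, adjusted p = 4.08e-24), to values that overlapped EH. PSME1 (chr14:24605372-24608176, plus strand, GRCh37), the partner gene close by, was 199 and 194 CPM in EH, 363 and 341 in EL and 175 and 166 in ELR. It followed the same course, 0.87 ± 0.08 (SE, adjusted p = 3.09e-16) up and -1.02 ± 0.07 (SE, adjusted p = 4.01e-22) down. In ELR against EH neither was called, with -0.15 ± 0.09 for PSME1 and 0.07 ± 0.09 for PSME2. PSME3, the nuclear ring, was 166 and 151 CPM in EH, 215 and 189.6 in EL and 272 and 281 in ELR and rose stepwise without overlap, by 0.38 ± 0.09 (SE, adjusted p = 0.000379) and 0.47 ± 0.07 (SE, adjusted p = 2.35e-08). Each of these PSME3 steps was lost with the wider spread, while ELR against EH, 0.85 ± 0.09 (SE, adjusted p = 1.02e-13), was not. PSME4, the large single-chain activator, was 129 and 109 CPM in EH, 101 and 102 in EL and 115 and 113 in ELR. No comparison among the lines called it, and its EL value was -0.21 ± 0.11 (SE, adjusted p = 0.133). PSMF1, the inhibitor, rose in EL by 0.36 ± 0.10 (SE, adjusted p = 0.00306), a call lost without EH replicate 1 (adjusted p = 0.0757) and with the wider spread.

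**Figure D2:**
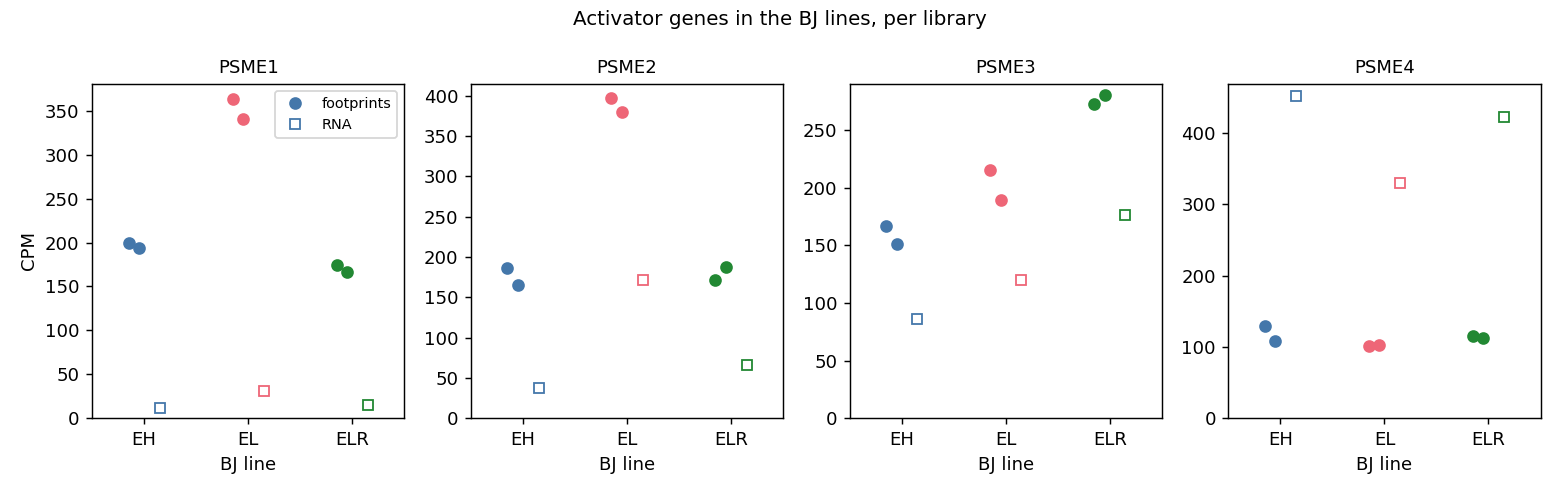
Activator genes in the BJ lines, 1 panel per gene, with filled circles for cycloheximide footprints (2 libraries per line) and open squares for RNA (1 library per line), in CPM from 0. PSME1 and PSME2 are highest in EL in both assays, PSME3 increases from EH to ELR, and PSME4 has more RNA than footprints in every line.

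The 3 immunoproteasome genes left out by the rule were measured alongside, since they share interferon control with PSME1 and PSME2 in textbook accounts. PSMB10 footprints were 26.0 and 28.5 CPM in EH, 47.4 and 57.1 in EL and 36.6 and 50.2 in ELR. It rose in EL by 0.96 ± 0.20 (SE, adjusted p = 5.09e-05), and ELR against EH was 0.70 ± 0.21 (SE, adjusted p = 0.0037). Its calls were not checked with the wider spread, by DESeq2 or with libraries left out. PSMB8 had 7 counts over all 36 libraries and PSMB9 had 0. Of their transcripts, 14 of 16 for PSMB8 and 7 of 8 for PSMB9 lie on alternative haplotypes of the MHC region, where a read can match several places, so these counts may not measure their level.

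RNA of the activators was highest in the same lines as the footprints, with 1 library per line and hence no test. PSME2 RNA was 37.3 CPM in EH, 171 in EL and 65.7 in ELR. PSME1 RNA was 11.7, 30.8 and 15.3 CPM, and PSME3 RNA was 86.2, 120.3 and 177 CPM. EL was the highest line for PSME1 and PSME2, and ELR for PSME3. On the log2(CPM + 1) scale, EL over EH was above 0 for 36 of 42 members with at least 10 CPM, with a median of 0.32 against -0.04 for 8872 genes. PSME2 (2.17), PSME1 (1.33) and PSMG1 (1.01) were past a 2-fold increase and 0 members past a 2-fold decrease, where 5.25% and 7.99% of all genes were. Scaled by library totals instead, the median was 0.51. For ELR over EH, 35 of 43 members were above 0 (median 0.28, against -0.02 for 8922 genes, and 0.48 by library totals). PSMG3 (2.33), PSMG1 (1.07), PSMD11 (1.06) and PSME3 (1.03) were past 2-fold upward and 0 downward, against 6.51% and 12.4% of all genes. PSMG3 rests on low RNA values of 2.69 CPM in EH and 17.5 in ELR.

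Ribosome loading, the change in footprints beyond the change in RNA, was tested as an interaction. From EH to EL 1 member rose and 1 fell of 43, where 3.78% and 2.92% of all genes did. PSME2 fell by 1.02 ± 0.19 (SE, adjusted p = 5.23e-05) on the log2 scale, the RNA ratio of EL to EH being larger than the footprint ratio, and it was called under all 8 alternatives (adjusted p from 7.56e-06 to 0.00181). PSMD6, a lid subunit, rose by 0.52 ± 0.15 (SE, adjusted p = 0.0161), but it was not called by DESeq2 (adjusted p = 0.242) or without EH replicate 2 (adjusted p = 0.0618), and was called under the other 6 of 8 alternatives. Without EL replicate 1, 2 members rose. From EL to ELR 0 rose and 1 fell, where 1.03% and 1.94% of all genes did, and 10 members had an unadjusted p under 0.05. DESeq2 called 1 higher and 0 lower of the 28 members it gave an adjusted p. PSMD10, the cap chaperone also known as gankyrin, had -0.77 ± 0.23 (SE, adjusted p = 0.0399), which was lost under RLE scaling (0.0944) and without ELR replicate 1 (0.175), EL replicate 2 (0.0645) or ELR replicate 2 (adjusted p = 0.0548). PSMB10 rose in loading by 1.71 ± 0.45 (SE, adjusted p = 0.0136) over the same step. Its RNA was low, at 5.83 CPM in EH, 21.3 in EL and 5.11 in ELR, from 13, 47 and 14 counts. EL was thus the highest line in PSMB10 RNA, and its loading was not tested under the alternatives. The loading tests use 1 RNA library per line, whose spread was taken from the footprint replicates. No alternative could leave out an RNA library, so the alternatives do not show how far a loading call rests on it.

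Harringtonine footprints of ELR and EH were lower in number, and 39 of the 45 members passed the filter. Of these 6 rose and 0 fell (10 had an unadjusted p under 0.05, in either direction), where 13.3% and 17.4% of all genes did, and the median log2 change was 0.46 against 0.04. DESeq2 called 1 higher and 0 lower. PSMD2 was 784 and 709 CPM in EH and 1019.8 and 1167 in ELR, a change of 0.59 ± 0.14 (SE, adjusted p = 0.000188), and it was called by DESeq2 too (adjusted p = 0.0328). PSMD12 was 34.9 and 76.7 against 151 and 131 CPM, 1.38 ± 0.43 (SE, adjusted p = 0.00643). PSMC5 was 78.4 and 86.3 against 216 and 167 CPM, 1.24 ± 0.36 (SE, adjusted p = 0.00336). The ELR libraries of these genes lay above both EH libraries. PSMD4 (1.14 ± 0.35, adjusted p = 0.00537), PSMB2 (1.15 ± 0.47, adjusted p = 0.0454) and PSMB4 (1.03 ± 0.37, adjusted p = 0.0191) rose as well. Without EH replicate 2 only 3 members rose, and the calls of PSMB2, PSMB4 and PSMD4 were lost (adjusted p = 0.423, 0.323 and 0.16). PSMC5 and PSMD12 were not called without EH replicate 1, PSMC5 and PSMD4 not without ELR replicate 1, and PSMB2 and PSMB4 not without ELR replicate 2.

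Few proteasome genes were called after activation of Src. At 1 h 0 of 43 members rose or fell in cycloheximide footprints (4 had an unadjusted p under 0.05, and DESeq2 called 0), where 0.0196% of all genes rose and 0% fell. At 4 h 0 members were called by edgeR or DESeq2 and 0 had an unadjusted p under 0.05, where 0.834% of all genes rose and 0.0196% fell. At 24 h 0 rose and 4 fell (7 had an unadjusted p under 0.05, in either direction), where 8.8% rose and 5.84% fell, and the median log2 change of the members was -0.10. Those 4 were the ATPases PSMC3, PSMC4 and PSMC5 and the lid subunit PSMD13.

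PSMC5 was 263, 315, 293 and 249 CPM at 0 h and after 1, 4 and 24 h of ethanol, and 180.3 and 210.0 after 24 h of tamoxifen, a change of -0.52 ± 0.14 (SE, adjusted p = 0.0178). PSMC4 was 214, 242, 240.4 and 190.4 CPM in the controls and 138 and 169 under tamoxifen, -0.52 ± 0.14 (SE, adjusted p = 0.024). For both genes all controls lay above the treated libraries. PSMC3 was 339, 345, 335 and 228 CPM in the controls and 199 and 227 under tamoxifen, -0.54 ± 0.17 (SE, adjusted p = 0.0459), with 3 controls well above. PSMD13 was 353, 352, 347 and 251 CPM in the controls and 206 and 246 under tamoxifen, -0.52 ± 0.15 (SE, adjusted p = 0.031). For PSMC3 and PSMD13 the 24 h ethanol library lay near the treated libraries and far below the other controls. Against ethanol of the same hour alone, none of the 4 was called (log2 change -0.08 for PSMC3, -0.29 for PSMC4, -0.34 for PSMC5 and -0.14 for PSMD13, adjusted p = 0.879, 0.464, 0.349 and 0.753). The count of members that fell was 2 without the 0 h library, 1 without ethanol 1 h, 1 without ethanol 4 h, 6 without ethanol 24 h, and 0 without either tamoxifen replicate.

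RNA after tamoxifen was measured in 1 library per time. At 4 h 0 members were called (0 with an unadjusted p under 0.05, 0 by DESeq2), where 0.16% of all genes rose and 0% fell. At 24 h 0 members were called (4 with an unadjusted p under 0.05, 0 by DESeq2), where 4.67% rose and 1.8% fell, and without the 24 h ethanol RNA library 1 rose and 1 fell. In loading at 24 h 0 members were called (1 with an unadjusted p under 0.05, and 0 by DESeq2 among the 24 members it gave an adjusted p), against 0.00898% and 0.431% of all genes. PSME2 footprints were 209, 189.7, 186 and 213 CPM in the controls and 208 and 249.6 at 24 h of tamoxifen. PSMB5 footprints were 489.9, 475, 461 and 406 CPM in the controls and 368 and 369 at 24 h. The 24 h libraries of PSMB5 lay below all controls and those of PSME2 overlapped them, and neither gene was called. PSME1, PSME3, PSME4, PSMB6 and PSMB7 were not called at any time either. In the single harringtonine libraries the log2(CPM + 1) ratios to 0 h had medians of -0.03, -0.01 and 0.14 at 1, 4 and 24 h, and 2, 4 and 4 of the members lay past 2-fold up and 3, 2 and 0 past 2-fold down. Among all genes 15.6%, 17.2% and 18.4% lay past 2-fold up and 11.7%, 12% and 9.28% past 2-fold down. PSMD10, at 1 h, was the lowest ratio and had no harringtonine count in that library.

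**Figure D3:**
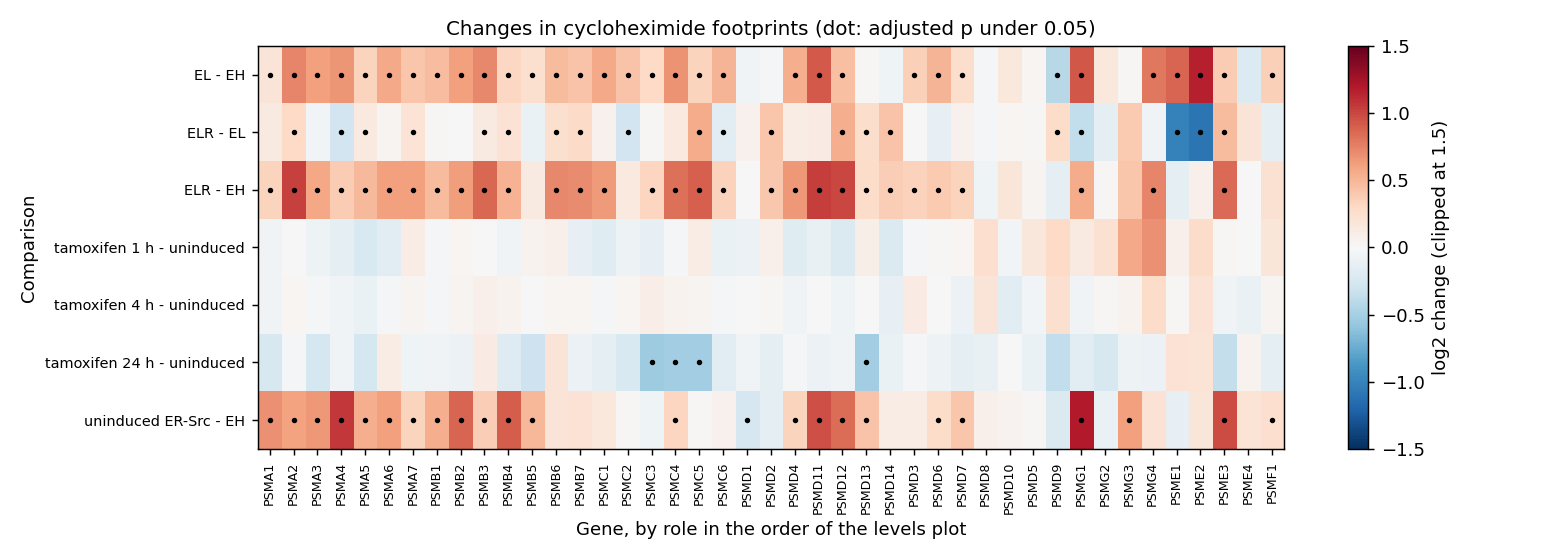
Log2 changes of 43 proteasome genes in cycloheximide footprints for 7 comparisons, coloured from blue (lower) to red (higher) and clipped at 1.5, with a dot where the adjusted p is under 0.05. The EL and ELR comparisons with EH are mostly red with many dots, the 1 h and 4 h tamoxifen comparisons have no dot, and the 24 h comparison has 4.

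Uninduced ER-Src cells had more proteasome footprints than EH fibroblasts. Of 43 members 23 were higher and 1 lower, where 29.4% of all genes were higher and 29.7% lower, with a median log2 difference of 0.27. These are different cell types with different marker levels, and line and cell type cannot be told apart. All 7 alpha and 5 of 7 beta genes were higher, but only 1 of 6 ATPases. PSMG1 was 186, 169.8, 152 and 171 CPM in ER-Src and 84.7 and 62.6 in EH, a difference of 1.19 ± 0.13 (SE, adjusted p = 3e-07). PSMA4 was 541, 657, 636 and 617 CPM against 317 and 269, 1.07 ± 0.13 (SE, adjusted p = 5.74e-07). PSMB4 was 736, 807, 818 and 613 CPM against 409 and 381, 0.91 ± 0.13 (SE, adjusted p = 7.28e-06). All 4 ER-Src libraries lay above EH for each of these genes. PSME3 (0.97 ± 0.15, adjusted p = 1.61e-05), PSMD11 (0.96 ± 0.12, adjusted p = 1.07e-06) and PSMB2 (0.87 ± 0.10, adjusted p = 6.52e-07) were also among the 6 largest. PSMD1, the other base scaffold, was the only member called lower than EH (-0.26 ± 0.10, adjusted p = 0.0396), and this call was lost without ethanol 24 h (0.0885), EH replicate 1 (0.165) or EH replicate 2 (adjusted p = 0.168). PSME1 (-0.12 ± 0.13), PSME2 (0.18 ± 0.13) and PSME4 (0.21 ± 0.12) were not called, nor were PSMB6 (0.20 ± 0.10) and PSMB7 (0.21 ± 0.12), while PSMB5 was 0.50 ± 0.11 (SE, adjusted p = 0.000812).

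In RNA 19 members were higher in uninduced ER-Src and 0 lower, where 20.9% and 22.5% of all genes were. DESeq2 called 12 higher and 0 lower, and without the 24 h ethanol library 1 was lower. PSMA4 RNA was 583, 675, 633 and 628 CPM against 273 in EH, 1.21 ± 0.16 (SE, adjusted p = 3.72e-05). PSMG1 RNA was 109.8, 132, 101 and 112 CPM against 39.9, 1.51 ± 0.23 (SE, adjusted p = 0.000127), so both stood above EH in each assay. PSMG3 (2.27 ± 0.58, adjusted p = 0.00599), PSME3 (1.16 ± 0.19, adjusted p = 0.000194), PSMD11 (1.08 ± 0.19, adjusted p = 0.00045) and PSMA3 (1.07 ± 0.19, adjusted p = 0.000416) complete the 6 largest. In loading 0 members were called (5 with an unadjusted p under 0.05, and 0 by DESeq2 among 41 members), against 0.716% and 0.42% of all genes. EH has 1 RNA library, so its spread was taken from the other groups.

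Per kb of coding sequence, the alpha genes and the ATPases each had like footprint levels in uninduced ER-Src and in EH. So had the beta genes in EH. In uninduced ER-Src the mean over the 7 alpha genes was 606 CPM per kb, with a coefficient of variation of 15.5% over genes (PSMA5 lowest at 506, PSMA4 highest at 783). The 6 ATPases had 208 CPM per kb and 12.5% (PSMC4 at 177, PSMC3 at 237). The core rings therefore stood above the ATPase ring in footprints per kb. Core genes also have shorter coding sequences (0.603 to 0.831 kb) than the ATPases (1.167 to 1.32 kb). The part of length in this difference was not tested. The 7 beta genes had 673 CPM per kb and 31.3% (PSMB6 at 415, PSMB4 at 939). Split by role, the 3 catalytic genes had 475 CPM per kb and 19.2%, and the 4 structural genes 821 and 14.9%. Lid genes ran from PSMD3 at 178 to PSMD8 at 430, with a mean of 276, and base genes from PSMD1 at 110 to PSMD2 at 297. Assembly chaperones were lower, with means of 116 for cap and 122 for core. Activators spread widest, from PSME4 at 24.9 to PSME3 at 409 CPM per kb.

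RNA levels per coding kb in the same cells were less even than footprint levels over the alpha, the beta and the ATPase genes. The coefficient of variation was 37.5% for alpha (mean 504 CPM per kb, PSMA1 at 241, PSMA4 at 804), 49.1% for beta (mean 217) and 41.6% for the ATPases (mean 214, PSMC4 at 41.7, PSMC1 at 278). For the lid it was 39.2%, with a mean of 193. The other base genes and the cap chaperones went the other way, with 51.5% in footprints against 20.4% in RNA and 36.2% against 21.1%. EH gave 15.8% for alpha, 17.7% for beta and 19.4% for the ATPases in footprints, against 36.2%, 56.7% and 44.9% in RNA. Its lid genes had 42.5% and 43.8%. In EH the footprint means were 388 for alpha, 455 for beta and 199 CPM per kb for the ATPases. They were 543, 623 and 268 in EL, and 567, 661 and 279 in ELR, where the coefficient of variation was 25.9% for alpha and 26.1% for the ATPases (PSMC2 at 188, PSMC5 at 406). The core rings held more footprints per kb than the ATPase ring in each line, and the part of their shorter coding length was not tested. These spreads are descriptions over genes, which are not replicates. The footprint and RNA libraries were made by different procedures, and the part of that in the spreads was not tested.

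**Figure D4:**
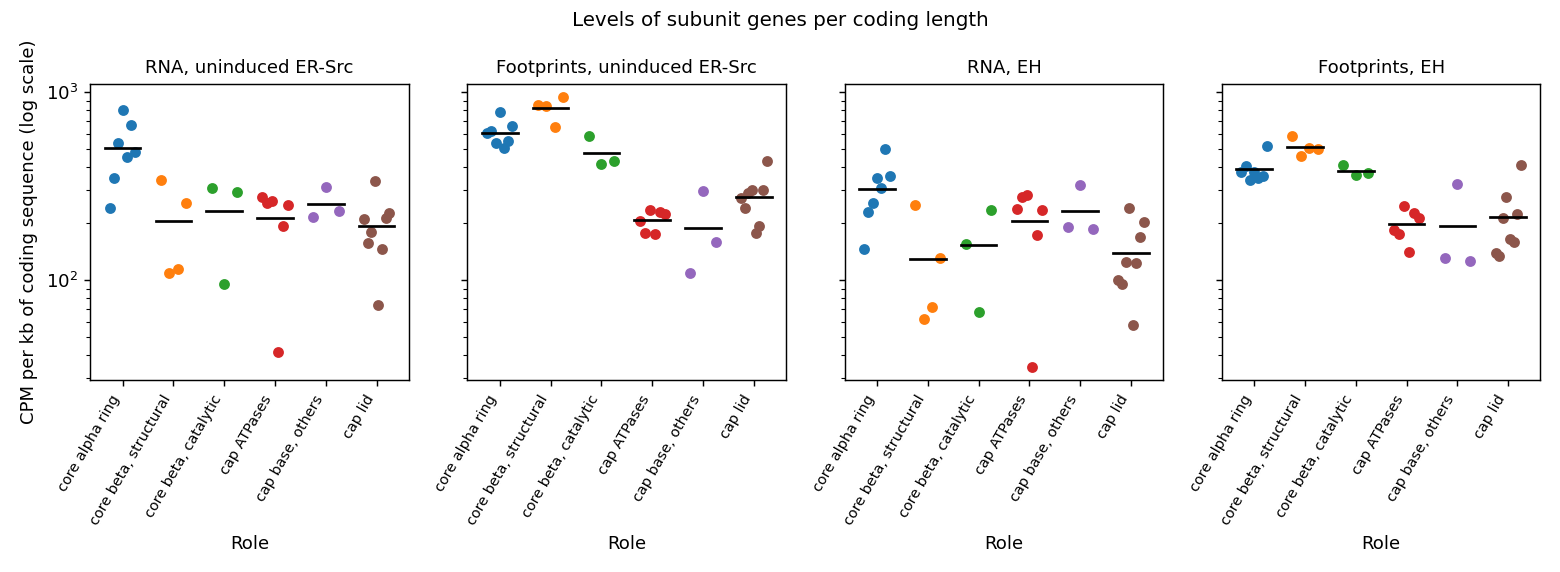
Levels of core and cap genes per kb of coding sequence (CPM per kb, log axis), by role, in RNA and footprints of uninduced ER-Src and of EH, with 1 point per gene (mean over its libraries) and a bar at the mean over genes. Alpha genes, structural beta genes, catalytic beta genes and ATPases each form a narrower band in footprints than in RNA.

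Footprints relative to RNA, set against the average gene, were high for most members. Each BJ line had 1 RNA library, so the spread in BJ was taken from the footprint replicates. The SE and adjusted p given for BJ therefore do not measure how RNA varies between libraries. In uninduced ER-Src 30 of 43 were higher and 5 lower, where 37% and 35.2% of all genes were, and the median log2 ratio was 0.70 against 0.04. In the BJ lines 35 were higher and 6 lower, where 39.6% and 40% were, with medians of 0.79 and -0.01. PSME1 had the highest ratio, 4.10 ± 0.16 (SE, adjusted p = 2.46e-14) in ER-Src and 3.79 ± 0.09 (SE, adjusted p = 1.98e-52) in BJ. Its RNA in ER-Src was 14.4, 12.6, 10.5 and 8.44 CPM and its footprints 209.5, 167, 179 and 172 CPM. The next were PSMB2 (3.07 ± 0.10 and 3.24 ± 0.07), PSMF1 (2.66 ± 0.12 and 3.02 ± 0.11), PSMB3 (2.62 ± 0.11 and 3.08 ± 0.06), PSMG2 (2.61 ± 0.12 and 2.93 ± 0.11) and PSMB6 (2.26 ± 0.10 and 2.53 ± 0.06). PSME4 was the lowest, -1.47 ± 0.10 (SE, adjusted p = 1.38e-10) in ER-Src and -1.73 ± 0.05 (SE, adjusted p = 6.86e-47) in BJ, with ER-Src RNA of 395, 395, 392 and 489.8 CPM and footprints of 136, 128, 152 and 136 CPM. PSMD1 (-0.85 ± 0.10 and -0.50 ± 0.04), PSMD4 (-0.43 ± 0.09 and -0.37 ± 0.05), PSMC2 (-0.40 ± 0.12 and -0.40 ± 0.04) and PSMC1 (-0.31 ± 0.12 and -0.17 ± 0.04) were lower in both, PSMA6 (-0.22 ± 0.04) in BJ. The ER-Src call of PSMC1 was lost without any 1 of the 0 h, ethanol 1 h and ethanol 4 h RNA libraries or of the 0 h and ethanol 24 h footprint libraries (adjusted p up to 0.0947).

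By role, the median log2 ratio in ER-Src and BJ was 2.00 and 2.09 for the beta genes, 0.30 and 0.48 for the alpha genes and -0.03 and 0.06 for the ATPases. Beta and alpha genes have like coding lengths but differ in base composition: coding GC was 40.1% to 52.2% for alpha, 50.1% to 57.5% for catalytic beta and 47.7% to 55.0% for structural beta genes. Across genes, the ratio in ER-Src went with coding GC at a Spearman rho of 0.44 over 43 members and 0.44 over 10305 genes. It went with coding length at rho -0.55 over the members and -0.55 over all. In BJ the values for GC were 0.47 and 0.49. Other genes with the coding length of core subunits (603 to 831 bases) had a median ratio of 0.83 in ER-Src (1027 genes) and 0.81 in BJ (1003 genes). Genes of one library pair share its depth and preparation, and the part of GC and length in the ratios was not tested. For 17 members the annotation names 44 pseudogenes, 13 of them of PSMC1, and reads of such near copies may be shared.

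Harringtonine and cycloheximide counts were compared in the BJ lines as deposited counts per transcript. Of 43 members 5 were higher and 36 lower under harringtonine, where 26.1% and 34.9% of all genes were, with medians of -1.12 and -0.27. DESeq2 called 3 higher and 36 lower, with medians of -1.19 for the members and 0.10 for all genes. PSME4, with 5.529 kb the longest coding sequence of the members, was 732 and 499 CPM in EH, 673 and 576 in EL and 869 and 619.8 in ELR under harringtonine. Against the cycloheximide values given above this was 2.71 ± 0.09 (SE, adjusted p = 5.51e-193). PSMD1, with 2.859 kb, was 714 and 690.2, 696 and 702 and 819 and 756 CPM in the 3 lines, 1.15 ± 0.07 (SE, adjusted p = 1.64e-58). Both had more harringtonine than cycloheximide signal in every BJ library. PSMG4 (0.72 ± 0.28, adjusted p = 0.0202), PSMC6 (0.26 ± 0.10, adjusted p = 0.0119) and PSMC3 (0.25 ± 0.09, adjusted p = 0.00828) were higher as well. Without EH, EL or ELR harringtonine replicate 1 the count of higher members was 3, 2 and 2, and without replicate 2 of the same lines it was 2, 2 and 3.

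Lowest under harringtonine were PSME2 (-2.42 ± 0.20, adjusted p = 2.12e-34), PSMA2 (-2.28 ± 0.14, adjusted p = 2.42e-61), PSMB2 (-2.03 ± 0.14, adjusted p = 9.24e-46), PSMA1 (-1.96 ± 0.14, adjusted p = 4.12e-42) and PSMB4 (-1.83 ± 0.12, adjusted p = 1.5e-52). All have coding sequences under 1 kb. PSMG3, with 0.366 kb, was also called lower, but it had a single count over the 6 harringtonine libraries against 17 and 23 counts in EH, 41 and 39 in EL and 54 and 43 in ELR under cycloheximide, so no fold is given. Across genes, the log2 ratio went with coding length at a Spearman rho of 0.60 over the 43 members and 0.67 over 8202 genes. The 810 other genes with the coding length of core subunits had a median of -1.03, and the 1731 genes of at least 2700 bases had 1.63.  How much of each ratio goes with length was not tested.

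**Figure D5:**
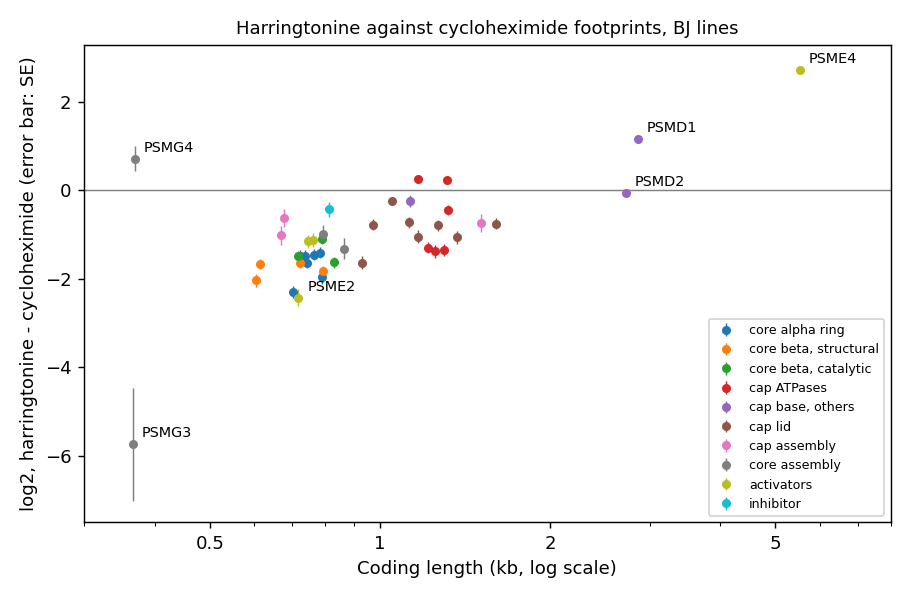
Log2 ratio of harringtonine to cycloheximide counts in the BJ lines against coding length (kb, log axis), 1 point per proteasome gene with its SE, coloured by role. PSME4 and PSMD1 lie at the upper right, and most core genes lie below 0 at short lengths.

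Other genes of the ubiquitin-proteasome pathway were counted from a list of 31 symbols, 28 of them measured: ubiquitin genes, activating enzymes, shuttle factors, assembly factors and regulators. Calls of these genes were not checked with the wider spread, by DESeq2 or with libraries left out, unlike those of the members. From EH to EL 8 rose and 8 fell, where 19.1% and 22.4% of all genes did. The largest increases were UBB (0.68 ± 0.05) and RPS27A (0.47 ± 0.05), both ubiquitin precursors, and UFD1L (0.35 ± 0.09), a cofactor of the VCP segregase. NFE2L1, the activator of subunit genes, fell most (-0.73 ± 0.10, adjusted p = 1.26e-09), with the shuttle factor UBQLN2 (-0.49 ± 0.12) and the ligase UBE3C (-0.43 ± 0.13). From EL to ELR 10 rose and 3 fell, where 17.4% and 18.7% of all genes did, with RPS27A (0.99 ± 0.04), the ubiquitin receptor ADRM1 (0.66 ± 0.06) and UBQLN2 (0.56 ± 0.10) highest and UFD1L (-0.30 ± 0.08), SHFM1 (-0.29 ± 0.10) and KIAA0368 (-0.23 ± 0.08) lowest. From EH to ELR 9 rose and 5 fell, where 25.5% and 27.8% of all genes did. RPS27A (1.46 ± 0.04) and ADRM1 (0.80 ± 0.08) rose most, and NFE2L1 (-0.48 ± 0.09), UBE3C (-0.48 ± 0.13) and NFE2L2 (-0.37 ± 0.10) fell most.

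After 24 h of tamoxifen 5 of the 28 rose and 2 fell, where 8.8% and 5.84% of all genes did. These calls were not tested against ethanol of the same hour alone, nor under the other alternatives. UBQLN2 (0.72 ± 0.15), the activating enzyme UBA6 (0.71 ± 0.12) and POMP (0.52 ± 0.12), which matures the core, rose most. RPS27A (-0.64 ± 0.16) was among those that fell. POMP footprints were 433, 455, 439 and 489 CPM in the controls and 616 and 685 under tamoxifen, above the 24 h ethanol library, which was itself the highest control. RPS27A was 1080.5, 1406, 1333 and 1082 CPM in the controls and 724 and 849 under tamoxifen. Between uninduced ER-Src and EH 7 were higher and 8 lower, where 29.4% and 29.7% of all genes were. UCHL5 (1.31 ± 0.12), a deubiquitinase of the cap, DDI2 (1.21 ± 0.28), the protease that activates NFE2L1, and RPS27A (1.07 ± 0.14) were highest. NFE2L1 (-1.07 ± 0.11) and the cap chaperone PAAF1 (-0.76 ± 0.29) were lowest.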

How the data were processed

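The deposited values are counts per RefSeq transcript, 1 table per library, made by the authors with TopHat on hg19 per the submitters' processing notes. Versions and the counting program are not given in the sources used here. RNA was depleted of ribosomal RNA with RiboMinus and tagged with ScriptSeq, per the labels' protocols. The 36 libraries form 27 groups by title. RNA counts rose with coding length (log2 slope 0.27, SE 0.017) and not with untranslated length (slope -0.08, SE 0.012, 7633 genes). Levels between genes are given per coding kb, from a GRCh37 annotation. The slope is below that of counts proportional to length and mixes expression with length. Differences per kb between short and long genes are therefore uncertain.

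Of 18 comparisons tested, each was fitted over all genes by the quasi-likelihood test of edgeR 4.0.16 (R 4.3.3), after filtering (minimum count 10, total 15) and TMM scaling, two-sided, with Benjamini-Hochberg adjustment over all genes and a call under 0.05. Loading is the interaction of assay and group. A group with 1 library was assumed to vary like the others. With 1 library in every group, log2 ratios (pseudocount 1 CPM) of genes reaching 10 CPM were described untested, at a fold of 2. DESeq2 1.42.0, another scaling, no filter, a pooled spread and left-out libraries were alternatives. Ethanol of the same hour as sole control was added after seeing the data.

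Genes named with values are those called among the 6 largest changes each way, the activators, PSMB5 to PSMB7, the highest and lowest level per length in each role, and pathway genes called among the 3 largest, of which some are not reported here. Others were chosen after their values were seen, such as PSMA1, PSMA4, PSMB3, PSMC3IP and the genes not called. Members and lists were chosen with earlier results of these data known. On simulated data for EL against EH (9738 genes), 39% of 1.5-fold and 74% of 2-fold changes were recovered, with 8.13% false calls. The shares were 13% and 74% for 24 h of tamoxifen (10018 genes), 27% and 45% for loading in EL against EH (10577 genes), and 0% and 27% for RNA of uninduced ER-Src against EH (10882 genes). False calls in these were 1.14%, 7.69% and 3.57%. Each simulation gave all genes the same spread, close to the common one of its fit, and changed genes drawn from all levels. It therefore cannot show the error under a wider spread between cultures, nor the power for the proteasome genes.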

Additional observations from a re-analysis of the deposited data

Results flagged for a closer look

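The CPM of 5 gene and library pairs stood far from the other libraries of the uninduced ER-Src group, by the gap to the nearest library over the range of the 4. The test was made on 86 groups of 4 libraries, and chance gives about 1 in 20. In footprints, PSMC3 was 227.6 CPM and PSMD13 was 251.3 CPM after 24 h of ethanol, where the other controls held 335.4 to 344.7 and 346.8 to 352.7. Both genes are among those called lower at 24 h of tamoxifen. PSMB3 was 409.4 CPM at 0 h, where the others held 395.3 to 396.4. In RNA after 24 h of ethanol, PSMB7 was 222.6 CPM (others 249.9 to 252) and PSME4 was 489.8 CPM (others 392.3 to 394.6). The distances of PSMB3 and PSMB7 are small on the scale of the changes described above, and 4 of the 5 values come from ethanol at 24 h.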

How the results depend on the processing

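No called member reversed its direction. Under RLE scaling the members' median went from -0.031 to 0.052 for loading in ELR against EL, and from 0.008 to -0.118 for loading in uninduced ER-Src against EH, where that of all genes went from 0.085 to -0.039. Members' medians close to 0, at 1 h and 4 h of tamoxifen and in 24 h RNA, also changed sign under some alternatives. With the spread of all 16 cycloheximide libraries, EL against EH had 20 members higher (32 otherwise), and ELR against EL had 3 higher and 3 lower. Over all genes 2608 and 1781 of 10936 were called, in either direction. DESeq2 gave 1 higher for ELR against EH under harringtonine and 0 higher for loading in EL against EH. It gave 1 higher and 0 lower for loading in ELR against EL. For uninduced ER-Src against EH it gave 18 higher and 0 lower in footprints and 12 higher in RNA. For harringtonine against cycloheximide it gave 3 higher. RLE scaling gave 2 higher and 0 lower for loading in ELR against EL. Without the low-count filter, uninduced ER-Src against EH footprints had 0 lower and harringtonine against cycloheximide 2 higher. At 24 h of tamoxifen 2 members were lower without the 0 h library and 0 against ethanol of the same hour. Scaled by library totals, the RNA medians were 0.5119 for EL and 0.4763 for ELR over EH, that of 4 h harringtonine was -0.09252, and the EH footprint means per kb were 357.05 (alpha), 419.05 (beta), 182.91 (ATPase) and 198.16 (lid). The cause was not tested for any of these.

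Leaving out 1 library at a time, the count of members was 3 to 5 higher for ELR against EH under harringtonine, 0 to 6 lower at 24 h of tamoxifen, 0 to 1 higher and 0 to 1 lower in its RNA, 0 to 2 higher for loading in EL against EH and 0 to 1 lower in ELR against EL. For uninduced ER-Src against EH the count was 16 to 23 higher and 0 to 1 lower in footprints. In RNA of the same comparison it was 13 to 21 higher and 0 to 1 lower. For harringtonine against cycloheximide it was 2 to 5 higher.

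Correlations of same-numbered deviations were 0.0191 to 0.0607 in BJ cycloheximide, 0.0716 to 0.16 in BJ harringtonine and -0.0504 to 0.237 in ER-Src. Counting noise lowers such correlations, so whether replicate numbers pair the libraries cannot be judged from them. With a replicate block, EL against EH had 32 higher and 1 lower, ELR against EL 16 and 6, ELR against EH 30 and 0, and 24 h of tamoxifen 3 lower. Under the block, loading in ELR against EL had 1 higher and 2 lower. Single genes kept their call in 225 cases and lost it in 30 with DESeq2, and kept it in 1509 and lost it in 115 with a library left out. Under harringtonine the small counts limit what can be detected.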
